A study of Mus musculus with 6 samples.

Results

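The genes described here are those of the cyclic AMP (cAMP) pathway: the adenylyl cyclases that make cAMP, the phosphodiesterases that break it down, the subunits of protein kinase A (PKA), the anchors that hold PKA in place, and the CREB transcription factors with their coactivators. They were chosen by symbol. Taken were Adcy, Pde, Akap or Creb followed by a digit, any symbol starting with Prkac or Prkar, and Crebbp, Crtc1, Crtc2, Rapgef3 and Rapgef4. No measured value enters this rule, but the members were chosen with earlier results of these data known. The rule found 96 clones of 47 genes among 36012 clones and 11837 named genes, and none of them was Rapgef3 or Rapgef4, which encode the Epac exchange factors. They comprised 11 clones of 5 cyclases, 37 clones of 20 genes with a phosphodiesterase symbol, 10 clones of 6 PKA subunits, 21 clones of 10 anchors and 17 clones of 6 CREB factors and coactivators.

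Total RNA of adrenal glands from wild-type mice (PACAP +/+) was compared with that of mice lacking PACAP (PACAP -/-), both F2 animals of the mixed 129XC57BL6 background, on 6 spotted cDNA arrays. PACAP is the neuropeptide that the splanchnic nerve releases onto the chromaffin cells of the adrenal medulla, and the comparison asks how its loss alters adrenal gene expression. On every array Cy5 (red) marked the wild-type RNA and Cy3 (green) the knockout RNA. The dyes were never exchanged, so a clone's dye effect and its genotype effect cannot be told apart. The labels give no age, sex, kind of PACAP allele or pooling of animals. Nor do they say that the arrays held RNA of separate animals, so p-values measure only how far these 6 arrays differ, and that spread may be technical. The targeted gene Adcyap1, which encodes PACAP, gave no check of the labels, since its 1 clone passed the quality limit on 2 arrays.

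PACAP takes its name from its action on this pathway. Its receptors couple through the stimulatory G protein to adenylyl cyclase, and cAMP binds the regulatory subunits of PKA, which then release the catalytic subunits. In the adrenal cortex the same pathway carries the signal of adrenocorticotropin (ACTH) to steroid synthesis, and in the medulla it serves catecholamine synthesis and gene expression through CREB. Whole-gland RNA holds both, so that fewer cells of a type and less RNA per cell cannot be told apart.

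The arrays differed in their red, wild-type channel. The median red signal was 1.14 to 4.79 times its local background, with the lowest values on arrays 4 (1.14) and 2 (1.37) and the highest on array 1 (4.79), whereas the median green signal was 5.39 to 7.07 times its background. Markers of the gland's own cells were well detected. Of 7 measured genes of the medulla, 3 were higher in the knockout (Chgb, Scg2 and Scg3) and 1 was lower (Slc18a1), and of 7 measured genes of the cortex 3 were higher (Hsd3b1, Nr5a1 and Scarb1) and none was lower. Global loess, described below, gave 5 higher and 1 lower in the medulla list and 4 higher in the cortex list. The summed normalized signal of the 6 medulla genes seen on all arrays ran from 4464 to 22849 in wild type and from 11197 to 25954 in the knockout, and that of the 6 cortex genes from 6697 to 29617 and from 16480 to 31822. Within arrays, the knockout sum was above the wild-type sum on 6 of 6 arrays for medulla and on 5 of 6 for cortex. Slc18a1 and Hsd3b1, measured on 5 arrays, were not in these sums. None of the 4 endothelial, 2 macrophage, 2 lymphocyte and 3 Schwann cell genes measured passed the threshold. Each of them passed the quality limit on at least 4 arrays. The Schwann cell genes S100b and Sox10 were dim, at the 4.96th and 3.47th percentile of signal. Fabp4 of adipocytes (0.21) and Alas2 of erythroid cells (-0.13) did not pass either, and no listed kidney gene was on the array. With global loess Eng of endothelium (0.42) and Cd68 of macrophages (0.63) were higher and Ptprc of lymphocytes (-0.47) was lower. The part of the medulla and cortex markers in the results below was not tested.

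Values are log2 ratios of knockout over wild type, normalized within each of the 48 print blocks of a slide (print-tip loess), and a clone passed if its adjusted p was below 0.05 in limma. A second value, normalized over the whole slide (global loess), is given where it differs, because print blocks then accounted for 46.9% of the variance in mean ratio, against 0.0635% after print-tip loess. Ratios were read only where the deposited quality score was above 0.3. Of the 96 clones, 63 were measured on 6 arrays, 15 on 4 or 5, 12 on 1 to 3 and 6 on none, and the 78 on at least 4 arrays were tested. The 18 clones not tested were dim, with a median red signal of 0.629 times its background against 2.26 for those tested. Because of them 6 genes had no test: Adcy8, Creb3l2, Pde1c, Pde4dip, Pde6h and Prkar2a.

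Among the 78 clones tested, 14 passed, with 9 above and 5 below wild type in the knockout, against 11.4% of the 28708 clones of the whole array. Of all clones 6.74% passed as higher and 4.62% as lower. At an unadjusted p below 0.05, the pathway had 27 of 78 clones, against 32.8% of all clones. The median log2 ratio of the 78 clones was 0.02, with 40 above 0, and the median of all clones was -0.00. The 14 ratios were between 0.30 and 0.97 in size, and they belonged to 14 different genes, none of which had 2 clones that passed. Those of Pde1a, Pde5a, Akap11, Akap17b, Crebbp and Crtc1 came from clones titled only as expressed sequence tags. Their genes rest on the platform annotation alone. The adjusted p of the 14 lay between 0.0249 and 0.0477 in limma. Over the alternative settings, each had a highest adjusted p of 0.0992 to 0.927 and a lowest of 0.000293 to 0.033.

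**Figure D1:**
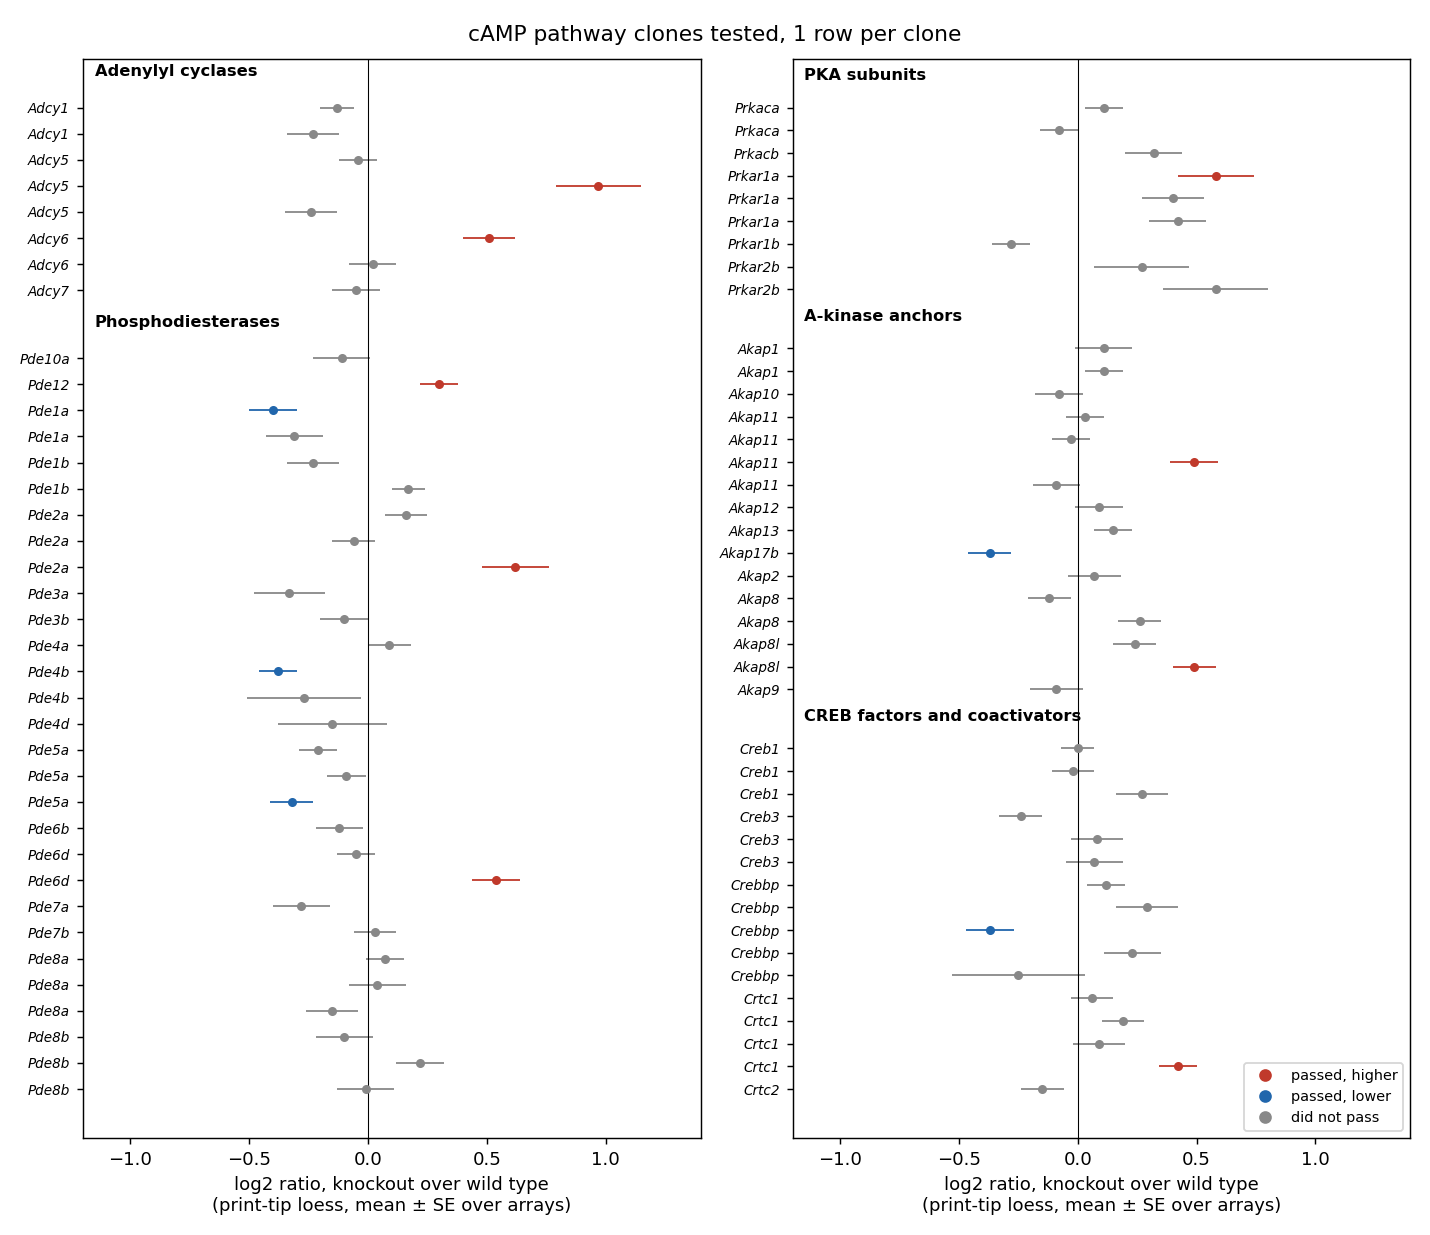
Log2 ratio of knockout over wild type for each of the 78 cAMP pathway clones tested, as mean ± SE over the arrays that measured it (print-tip loess), in rows by class and gene. Red points passed as higher and blue points as lower (adjusted p below 0.05 in limma); most clones lie close to 0, and clones of the same gene, in neighbouring rows, often differ.

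Whether these clones passed depended on which arrays were in the fit. All 14 clones kept their sign and an unadjusted p below 0.05 when any 1 array was left out, but after adjustment 12 of the 14 still passed without array 1, 10 without array 5, and none without array 2, 3, 4 or 6. In those 4 fits no other pathway clone passed either. At an unadjusted p below 0.05 in limma, they had 18 of 75, 21 of 77, 22 of 76 and 27 of 75 pathway clones tested. Over all clones tested, these fits had 7112 of 28305, 7486 of 27422, 6784 of 27910 and 9055 of 27427. The adjusted p of the 14 in limma was 0.0714 to 0.129 without array 2 and 0.0743 to 0.12 without array 3. It was 0.0681 to 0.131 without array 4 and 0.0503 to 0.0801 without array 6. Across the whole array the fits without array 2, 3, 4 or 6 left 1, 1, 19 and 1 clones. With global loess 30 of the 78 clones passed, 18 higher and 12 lower, against 30.4% of all clones, 16.2% higher and 14.2% lower. At an unadjusted p below 0.05 it had 38 of the 78, against 42.6% of all clones. It called 9 of the 14 in the same direction, 1 in the opposite direction, and 4 not at all.

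**Figure D2:**
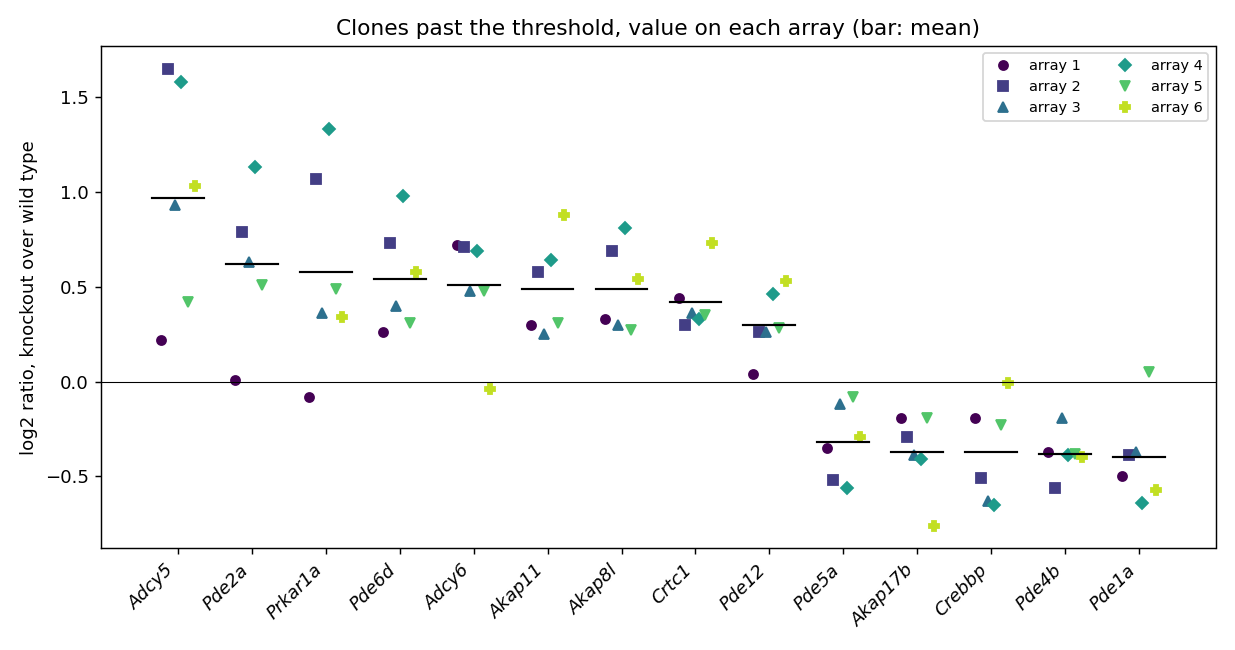
Log2 ratio on each of the 6 arrays (one symbol and colour per array, print-tip loess) for the 14 cAMP pathway clones past the threshold, ordered by their mean, which the bar marks. Among the 9 clones that passed as higher the median on arrays 2 and 4 was 0.71 and 0.81, and on array 1 it was 0.26.

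The arrays with the weakest wild-type signal gave the largest ratios in many of these clones. Over the 9 higher clones the median was 0.26, 0.71, 0.36, 0.81, 0.35 and 0.56 on arrays 1 to 6. Over the 5 lower clones it was -0.35, -0.51, -0.37, -0.56, -0.19 and -0.40. Arrays 2 and 4 thus stood furthest from 0 in both directions. Without them none of the 68 pathway clones then tested passed, and 15 had an unadjusted p below 0.05 in limma. Of all 25928 clones in that fit, 90 passed and 4798 had an unadjusted p below 0.05. The Pde2a clone was not tested in it. The part of the weak red signal in these ratios was not tested.

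Adenylyl cyclases convert ATP into cAMP, and 2 of their 8 clones tested passed (25%, against 11.4% of all clones), both higher in the knockout. Adcy6 encodes a cyclase that calcium inhibits. Its brighter clone, which the scanner files title as similar to this cyclase, was at 0.72, 0.71, 0.48, 0.69, 0.48 and -0.04 on arrays 1 to 6. The knockout was thus higher on 5 arrays and level with wild type on array 6. The mean was 0.51 ± 0.11 (SE, n = 6; 1.42-fold, adjusted p = 0.0292), and global loess gave 1.18 ± 0.13 (adjusted p = 0.000293). In the deposited value table it was 0.07 ± 0.46 (adjusted p = 0.908). That table was read without the quality limit, and the median of all clones in it was 0.43. The other Adcy6 clone was at 0.02 ± 0.10 and did not pass (adjusted p = 0.896).

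Adcy5 encodes the close relative of Adcy6, and its clones disagreed. The clone that passed was at 0.22, 1.65, 0.93, 1.58, 0.42 and 1.03 on arrays 1 to 6. All of its ratios were above 0, and arrays 2 and 4 stood highest. Its mean of 0.97 ± 0.18 (SE, n = 6; 1.96-fold, adjusted p = 0.0249) was the largest among the 78 clones after print-tip loess. Global loess gave 0.61 (adjusted p = 0.0158). The clone did not pass with median centring (0.46, adjusted p = 0.052), in the deposited value table (0.27) or without arrays 2 and 4 (0.65). The scanner files title this clone as similar to a putative serine/threonine protein kinase, not as a cyclase. The brightest Adcy5 clone was at -0.04 ± 0.08, and the remaining one tested at -0.24 ± 0.11. With global loess the brightest clone was at 0.69 and passed (adjusted p = 0.00237).

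The other cyclases did not pass. Adcy1, a cyclase that calcium and calmodulin activate and that is best known from brain, had 2 clones tested, at -0.13 ± 0.07 and -0.23 ± 0.11. With global loess these passed in opposite directions, at 0.43 and -0.51. The single Adcy7 clone was at -0.05 ± 0.10. Its red signal, after subtraction of background, was smaller than that background on 5 of the 6 arrays. The median over the 8 cyclase clones was -0.04, or 0.36 with global loess.

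Phosphodiesterases hydrolyse cAMP, cGMP or both. Against 11.4% of all clones, 20.7% of their 29 clones tested passed, with 3 higher, 3 lower and 23 not past the threshold. Their median log2 ratio was -0.10, with 19 clones below 0, and -0.02 with global loess. It was 0.03 with median centring. The class was counted by symbol and so includes Pde6d, Pde12 and Pde4dip, which are not cyclic nucleotide phosphodiesterases. The 3 higher clones were those of Pde2a, Pde6d and Pde12.

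Pde4b encodes a cAMP-specific phosphodiesterase that is itself known to be induced by cAMP, and it was lower in the knockout. Its brighter clone was at -0.37, -0.56, -0.19, -0.39, -0.38 and -0.40 on arrays 1 to 6. Every array showed the knockout below wild type, within a narrow range. The mean was -0.38 ± 0.08 (SE, n = 6; 1.30-fold lower, adjusted p = 0.0276), with global loess -0.52 (adjusted p = 0.00556), and in the deposited value table it had the other sign, at 1.48, without passing. This clone was dim, at the 4.59th percentile of signal, with a median red signal of 1.20 times its background. The other Pde4b clone was at -0.80 to -0.32 on 4 arrays and at 1.07 on array 5, with a mean of -0.27 ± 0.24 (n = 5, adjusted p = 0.465).

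No other cAMP-specific phosphodiesterase passed. Pde4a was at 0.09 ± 0.09 and the Pde4d clone tested at -0.15 ± 0.23, on 4 arrays. Pde7a was at -0.28 ± 0.12 (adjusted p = 0.131) and Pde7b at 0.03 ± 0.09. The high-affinity enzymes Pde8a and Pde8b, which are known to restrain steroid synthesis in the adrenal cortex, had 3 clones each. The Pde8a clones were between -0.15 and 0.07 and the Pde8b clones between -0.10 and 0.22. Pde3b, which cGMP inhibits, was at -0.10 ± 0.10, and its relative Pde3a at -0.33 ± 0.15 (adjusted p = 0.162). With global loess Pde4a passed as higher (0.57), and Pde3a (-0.63), Pde3b (-0.49), 1 Pde8a clone (-0.57) and 1 Pde8b clone (-0.39) as lower.

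Among the enzymes that take both nucleotides, Pde1a, which calcium and calmodulin activate, was lower. Its brighter clone was at -0.50, -0.39, -0.37, -0.64, 0.05 and -0.57 on arrays 1 to 6. The knockout was below wild type on all arrays except array 5. The mean was -0.40 ± 0.10 (SE, n = 6; 1.32-fold lower, adjusted p = 0.0355), and it did not pass with global loess (-0.19, adjusted p = 0.265). The second Pde1a clone had a like value that did not pass, at -0.31 ± 0.12 (adjusted p = 0.0975). The 2 Pde1b clones lay on either side of 0, at -0.23 and 0.17, and the first passed as lower with global loess (-0.64).

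Pde2a encodes the phosphodiesterase that cGMP activates, and of its 3 clones the dimmest passed. It was at 0.01, 0.79, 0.63, 1.13 and 0.51 on arrays 1 to 5, and array 6 gave no value. Array 1 was level with wild type and array 4 highest. On arrays 2 and 4 the background-subtracted red signal was 0.745 and 0.415 times its background. The mean was 0.62 ± 0.14 (SE, n = 5; 1.53-fold, adjusted p = 0.0362), against 0.78 after global loess (adjusted p = 0.01). The brighter Pde2a clones were at 0.16 ± 0.09 and -0.06 ± 0.09, so the gene had no common value. Pde10a was at -0.11 ± 0.12.

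The cGMP enzyme Pde5a, the target of sildenafil, had 3 bright clones, all below 0. The clone that passed was at -0.35, -0.52, -0.12, -0.56, -0.08 and -0.29 on arrays 1 to 6. All its ratios were below 0, with the smallest on arrays 3 and 5. Its mean was -0.32 ± 0.09 (SE, n = 6; 1.25-fold lower, adjusted p = 0.0471). The brighter ones were at -0.21 ± 0.08 (adjusted p = 0.124) and -0.09 ± 0.08 (adjusted p = 0.475), and the latter passed as higher with global loess, at 0.54.

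Pde6d and Pde12 carry the symbol of the family without its cAMP-degrading activity. Pde6d encodes a protein that shuttles prenylated proteins between membranes, and its dimmer clone was at 0.26, 0.73, 0.40, 0.98, 0.31 and 0.58 on arrays 1 to 6. The knockout was higher on every array. On arrays 2 and 4, where the ratio was largest, the background-subtracted red signal was 0.726 and 0.762 times its background. The mean was 0.54 ± 0.10 (SE, n = 6; 1.46-fold, adjusted p = 0.0255), with 0.64 in global loess, whereas the brighter Pde6d clone was at -0.05 ± 0.08. Pde12 encodes an RNA-trimming enzyme of mitochondria. It was at 0.04, 0.26, 0.26, 0.46, 0.28 and 0.53 on arrays 1 to 6, with a mean of 0.30 ± 0.08 (adjusted p = 0.0458), but global loess turned its sign, at -0.33 ± 0.12 (adjusted p = 0.0457), and was at -1.08 in the deposited value table. Its clone was printed in block 1. With block medians removed after global loess it was at 0.28 and did not pass (adjusted p = 0.0503 in limma). Pde6b, the photoreceptor enzyme, was at -0.12 ± 0.10.

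PKA is a tetramer of regulatory and catalytic subunits. Of its 9 clones tested, 1 passed (11.1%, against 11.4% of all clones), a clone of Prkar1a that was higher in the knockout. Prkar1a encodes the type I alpha regulatory subunit, the main brake on PKA, whose inactivation causes adrenocortical disease with cortisol excess. All 3 of its clones were above 0 in both normalizations, within 0.18 of each other after print-tip loess. The scanner files title all 3 as this gene. Of the 11 pathway genes with at least 3 clones tested, Prkar1a was the only 1 with every clone on the same side of 0 in both. Among the 22 genes with at least 2 clones tested, 10 had all clones on the same side of 0 after print-tip loess and 8 with global loess, and the median spread between clones of a gene was 0.31 and 0.67.

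Of the RefSeq promoter windows (250 bases before to 50 after each annotated start, assembly GRCm38.p6), which matched 39 of the 47 genes, only 1 gene of the pathway had the full cAMP response element TGACGTCA, the palindrome to which CREB binds, and that gene was Prkar1a. The element occurred in 588 of 32851 windows (1.79%) and in 549 of 27025 genes (2.03%). Its core alone, TGACG or on the other strand CGTCA, which the full element also holds, occurred in 16 of the 39 pathway genes and in 23.0% of all genes, and a gene with more windows has more chances to hold it. One window is shown for Prkar1a, out of 6, and one for Pde4b, out of 4, because Prkar1a holds the full element and Pde4b is the cAMP-specific enzyme that was lower. Capitals mark the core and, in Prkar1a, the full element, which begins 49 bases before the start (chr11:109650699-109650998 and chr4:102421305-102421604, both on the + strand).
Prkar1a: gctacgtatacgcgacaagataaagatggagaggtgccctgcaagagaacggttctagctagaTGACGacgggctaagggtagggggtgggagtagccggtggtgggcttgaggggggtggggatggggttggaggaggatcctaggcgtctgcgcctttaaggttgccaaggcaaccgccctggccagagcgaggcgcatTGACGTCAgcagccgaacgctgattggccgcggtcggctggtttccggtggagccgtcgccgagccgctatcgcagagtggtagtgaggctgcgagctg
Pde4b: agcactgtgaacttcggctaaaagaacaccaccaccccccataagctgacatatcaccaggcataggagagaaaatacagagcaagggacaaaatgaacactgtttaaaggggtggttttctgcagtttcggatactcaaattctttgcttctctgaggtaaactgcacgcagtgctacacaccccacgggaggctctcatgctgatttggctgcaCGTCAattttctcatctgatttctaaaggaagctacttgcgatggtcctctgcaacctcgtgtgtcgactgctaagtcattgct
A match describes the letters of the window and says nothing of binding in these glands.

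The brightest Prkar1a clone was at -0.08, 1.07, 0.36, 1.33, 0.49 and 0.34 on arrays 1 to 6. Its background-subtracted wild-type signal on these arrays was 1568, 217, 510, 170, 327 and 1026, and its knockout signal 1606, 1598, 1768, 1544, 1334 and 3777, before normalization. The knockout signal was alike on arrays 1 to 5, and the wild-type signal was lowest on arrays 2 and 4. The mean ratio was 0.58 ± 0.16 (SE, n = 6; 1.50-fold, adjusted p = 0.0477), or 0.72 ± 0.20 with global loess (adjusted p = 0.0158). Leaving out arrays 2 and 4 gave 0.28, and the deposited value table gave 0.06 ± 0.46 (adjusted p = 0.927).

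The other Prkar1a clones came close to the threshold without passing. One was at 0.07, 1.10, 0.19, 0.54, 0.22 and 0.27, and its mean was 0.40 ± 0.13 (SE, n = 6, adjusted p = 0.0655). The other was at -0.02, 0.63, 0.45, 0.95, 0.15 and 0.35, and its mean was 0.42 ± 0.12 (SE, n = 6, adjusted p = 0.0502). On array 1, which had the strongest wild-type signal, all 3 clones lay between -0.08 and 0.07. With global loess both passed, at 0.60 and 0.48. Without arrays 2 and 4 they were at 0.19 and 0.23. In the deposited value table they were at 1.83 ± 1.00 and 0.65 ± 0.46, and neither passed.

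The other regulatory subunits varied more. Prkar2b, the type II beta subunit, had a clone at 0.23, 1.73, 0.77, 0.98, -0.36 and 0.11 and another at -0.34, 1.39, 0.42, 0.43, -0.30 and 0.04 on arrays 1 to 6. Both were highest on array 2 and below 0 on array 5, and their means of 0.58 ± 0.22 (adjusted p = 0.106) and 0.27 ± 0.20 (adjusted p = 0.353) did not pass. With global loess the first passed as higher, at 0.89 (adjusted p = 0.00814), and the second was at -0.01. Leaving out arrays 2 and 4 gave 0.19 and -0.05. Prkar1b, the type I beta subunit, was below 0 on 6 of 6 arrays, between -0.51 and -0.04, with a mean of -0.28 ± 0.08 that did not pass (adjusted p = 0.058). It passed as lower with global loess (-0.46, adjusted p = 0.011) and was at 1.14 in the deposited value table.

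The catalytic subunits did not pass. The 2 clones of Prkaca, the main catalytic subunit, were at 0.11 ± 0.08 and -0.08 ± 0.08, and they took the other signs with global loess, at -0.40 and 0.23. Prkacb was at 0.32 ± 0.12 (adjusted p = 0.102), and with global loess at 0.74 (adjusted p = 0.00446). It also passed in the deposited value table, at 3.30 ± 0.83 (adjusted p = 0.024). With global loess 6 of the 9 PKA clones tested passed, where 30.4% of all clones did. The median over the 9 was 0.32, or 0.48 with global loess. Without arrays 2 and 4 that median was 0.19.

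**Figure D3:**
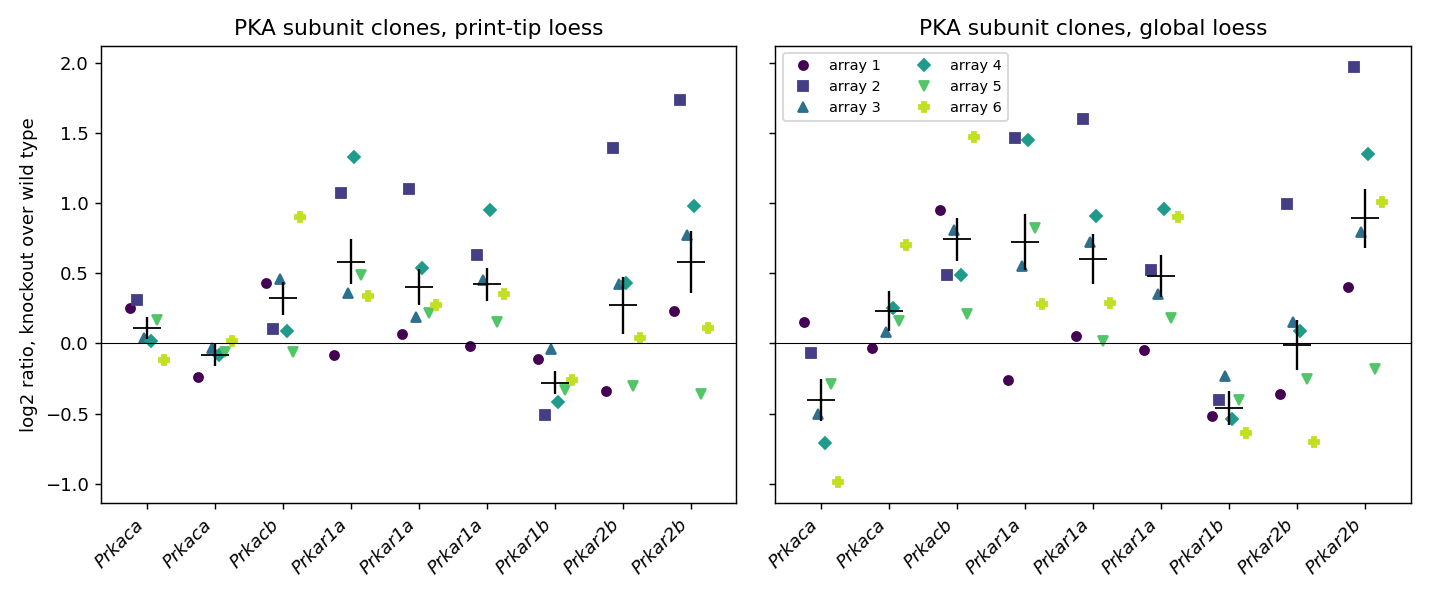
Log2 ratio of the 9 PKA subunit clones on each of the 6 arrays, after print-tip loess (left) and global loess (right), with the mean ± SE as a horizontal and a vertical bar. The 3 Prkar1a clones have means of 0.40 to 0.58 after print-tip loess and lie near 0 on array 1, whereas the Prkaca clones change sign between the normalizations.

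A-kinase anchors tie PKA to membranes, centrosome or nucleus. Of their 16 clones tested 2 passed as higher and 1 as lower (18.8%, against 11.4% of all clones), with a median of 0.08. Akap8l encodes a nuclear relative of the anchor AKAP95. Its clone of lower signal was at 0.33, 0.69, 0.30, 0.81, 0.27 and 0.54 on arrays 1 to 6. All arrays were above 0. The mean was 0.49 ± 0.09 (SE, n = 6; 1.40-fold, adjusted p = 0.0255), with global loess 0.38 (adjusted p = 0.0461), and in the deposited value table it had the other sign, at -0.68. The brighter Akap8l clone was also above 0 on 6 of 6 arrays, at 0.24 ± 0.09, but did not pass (adjusted p = 0.0933).

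Akap11, an anchor that also binds glycogen synthase kinase, had 4 clones tested, and the third in order of signal passed. It was at 0.30, 0.58, 0.25, 0.64, 0.31 and 0.88 on arrays 1 to 6, above 0 throughout. Its mean was 0.49 ± 0.10 (SE, n = 6; 1.41-fold, adjusted p = 0.0276), and it did not pass with global loess (0.32, adjusted p = 0.0739). The remaining 3 clones lay between -0.09 and 0.03 (the dimmest passed as higher with global loess, at 0.36), and the brightest of them had a median red signal of 48.4 times its background. Akap17b was lower, at -0.19, -0.29, -0.39, -0.41, -0.19 and -0.76, with a mean of -0.37 ± 0.09 (adjusted p = 0.0363). With global loess it was at -0.06 and did not pass, and with median centring it was at 0.02.

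The anchors of mitochondria, cytoskeleton and nucleus that are best known did not pass. Akap1, which lies on the outer mitochondrial membrane, was at 0.11 with both of its clones. Akap12 (gravin) was at 0.09 ± 0.10 and Akap13 at 0.15 ± 0.08. The background-subtracted red signal of Akap12 was smaller than its background on 5 of 6 arrays. Akap8 (AKAP95) had clones at -0.12 and 0.26, and Akap9, of the centrosome, was at -0.09 ± 0.11 on 4 arrays. Akap10 was at -0.08 ± 0.10 and Akap2 at 0.07 ± 0.11, and with global loess Akap2 passed as lower (-0.55).

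CREB binds cAMP response elements once PKA has phosphorylated it, and CREB-binding protein (Crebbp) and the CRTC proteins are its coactivators. Of 16 clones tested 1 passed as higher and 1 as lower (12.5%, against 11.4% of all clones), with a median of 0.07. Crtc1 was higher in the clone of lowest signal, at 0.44, 0.30, 0.36, 0.33, 0.35 and 0.73 on arrays 1 to 6. All arrays were above 0 and array 6 stood apart. The mean was 0.42 ± 0.08 (SE, n = 6; 1.34-fold, adjusted p = 0.0268), or 0.90 ± 0.12 with global loess. The other 3 Crtc1 clones were between 0.06 and 0.19 and did not pass, and with global loess they ran from -0.32 to 0.72, of which the last passed as higher (adjusted p = 0.00255).

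Crebbp, a histone acetyltransferase, was lower in 1 of its 5 clones tested, at -0.19, -0.51, -0.63, -0.65, -0.23 and -0.01 on arrays 1 to 6. All of these ratios were below 0, with array 6 level with wild type. The mean was -0.37 ± 0.10 (SE, n = 6; 1.29-fold lower, adjusted p = 0.0453), and it did not pass with global loess (-0.37, adjusted p = 0.107). The brightest Crebbp clone was at 0.12 ± 0.08, and the pair of clones titled as this protein were at 0.29 and 0.23. Creb1 itself had 3 clones, at -0.00, -0.02 and 0.27, none of which passed, and the brightest passed as higher with global loess, at 0.51 (adjusted p = 0.00911). Creb3, a membrane-bound factor of the secretory pathway, had clones at -0.24, 0.08 and 0.07, of which the first passed as lower with global loess (-0.61), and Crtc2 was at -0.15 ± 0.09.

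**Figure D4:**
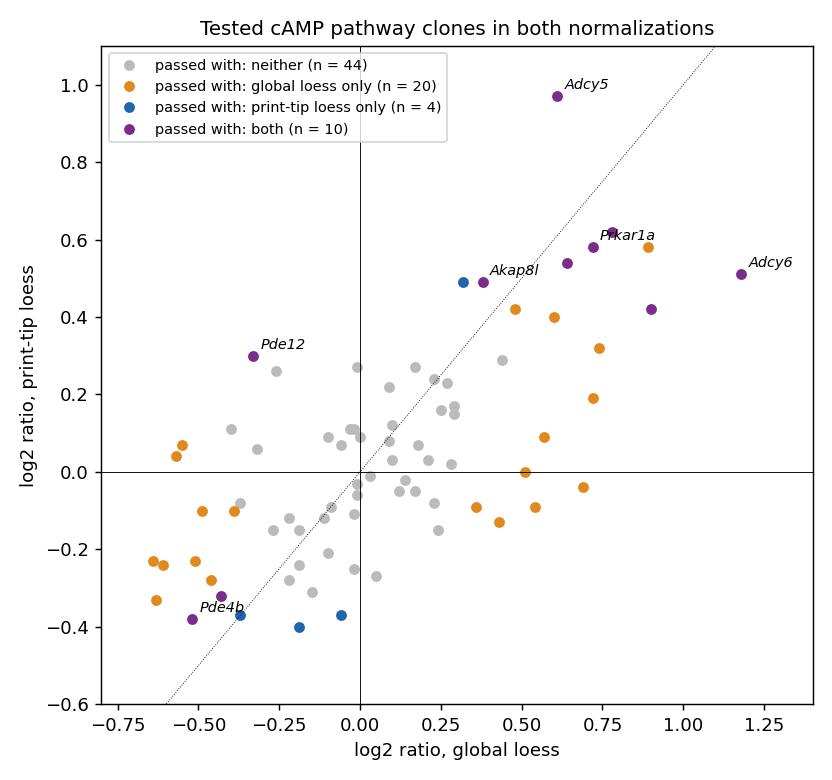
Log2 ratio of each of the 78 tested clones after global loess (horizontal axis) and print-tip loess (vertical axis), coloured by where it passed the threshold; the dotted line marks equal values. In both 10 clones passed, in global loess alone 20, in print-tip loess alone 4, and Pde12 lies in the quadrant of opposite signs.

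The rest of the pathway was read from a list of 79 symbols covering receptors, G proteins, PKA inhibitors, kinases, channels and other anchors, of which 42 had a clone tested. Each gene was read from its clone of highest signal. Of all clones on the array 6.74% passed as higher and 4.62% as lower. In the list 3 genes passed as higher and 1 as lower, which left 38, and the median was 0.04. The higher ones were Crem, the cAMP-inducible modulator of CREB (0.60 ± 0.13, adjusted p = 0.0313), the salt-inducible kinase gene Sik1, a cAMP-induced kinase that acts on the CRTC proteins (0.38 ± 0.09, adjusted p = 0.0336), and Ezr, whose product ezrin links membrane and actin and anchors PKA (0.47 ± 0.09, adjusted p = 0.0252). Ppp1r1a, a phosphatase inhibitor that PKA activates, was lower (-0.43 ± 0.09, adjusted p = 0.0312), but not past the threshold with global loess (-0.24). The ACTH receptor gene Mc2r was at 0.38 ± 0.13 and the PACAP receptor gene Adcyap1r1 at 0.13 ± 0.11, and neither passed. With global loess 6 of the 42 were higher and 7 lower, against 16.2% and 14.2% of all clones.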

How the data were processed

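The deposited scanner files give red and green intensity columns from which, per the series design text, the authors had subtracted background; at the 768 empty positions both had a median of 1.0. The deposited quality score of each ratio lies between 0 and 1, and the deposited calibrated ratio, red over green scaled by a constant for each array, served only as a check. The authors' value table holds log2 ratios of red over green; in all 2245 rows sharing a clone accession with 1 spot the value matched, to within 0.01, the log2 ratio left by subtracting background once more. Per the labels, red is wild type and green knockout. No aligner or build applies to these arrays.

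Log2 ratios of green over red were computed without further background correction, leaving out 1048 control or empty spots and scores of 0.3 or less. They were normalized by print-tip loess, spots of a clone were averaged, and clones on at least 4 arrays were tested against 0 in R 4.3.3 with limma 3.58.1 (lmFit, eBayes). Benjamini-Hochberg adjustment ran over 28708 clones. The number of arrays, 6, limits the precision. The fit was also run on simulated data with noise of the same size on every array and no clone-specific dye effect. That run therefore cannot show how the fit handles these features of the real arrays. Genes came from the platform annotation, linked to spots by value (99.8% of 35873 rows); it can be old. Symbols were updated through RefSeq (GRCm38.p6), and clones with several genes were not named. Alternatives were global loess, median centring, global loess with block medians removed, other quality limits, clones on all arrays, the deposited table, array weights, a mean trend and leaving out arrays. Members and lists were chosen with earlier results of these data known. By the naming rule, per-array values belong to clones that passed with all arrays on 1 side of 0; those of Adcy6, Pde1a, Prkar1a and Prkar2b were added after they were seen. The clone of highest signal stands for a gene, and others are named where they differ.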

Additional observations from a re-analysis of the deposited data

Results flagged for a closer look

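Of the 78 tested clones, 8 had 1 array whose ratio lay far from the others by Dixon's criterion at the 95% level, and chance alone flags about 1 in 20 such groups. Adcy6 was at -0.04 on array 6, against 0.48 to 0.72 on the other arrays. The dimmer Pde4b clone was at 1.07 on array 5, against -0.80 to -0.32. Pde6b was at 0.41 on array 6, against -0.36 to -0.13. A Pde8a clone was at 0.43 on array 1, against -0.41 to -0.21. An Akap8 clone was at 0.22 on array 5, against -0.27 to -0.11. A Creb1 clone was at 0.71 on array 2, against 0.09 to 0.23. A Crebbp clone was at -1.81 on array 1, against -0.07 to 0.63. The Crtc1 clone that passed was at 0.73 on array 6, against 0.30 to 0.44. Array 6 was the outlying one in 3 of these clones, arrays 1 and 5 in 2 each and array 2 in 1.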

How the results depend on the processing

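Each ratio sets the RNAs of 1 array against each other, so the test of the mean ratio against 0 was already paired by array. Counts of clones past the threshold are given as all clones, then the pathway, cyclases, phosphodiesterases, PKA subunits, anchors, and CREB factors with coactivators; print-tip loess gave 3259, 14, 2, 6, 1, 3 and 2. Global loess gave 8732, 30, 5, 12, 6, 3 and 4. Median centring gave 9428, 25, 4, 8, 5, 3 and 5. The deposited table gave 9914, 27, 4, 12, 2, 5 and 4, with 73.6% of all calls higher (59.3% with print-tip loess) and a median of all clones of 0.43. Without the quality filter every count was 0 in limma, with 10105 clones and 31 of the pathway at an unadjusted p below 0.05. Without arrays 2 and 4 all clones gave 90 and the pathway and each class 0, with 4798 and 15 at an unadjusted p below 0.05. Array weights gave 4926 clones in all. For PKA subunits global loess with block medians gave 4, clones on all arrays 3, and a quality limit of 0.5, array weights or a mean trend 2. Leaving out 1 array gave 1 to 3768 clones in all, 0 to 13 in the pathway, 0 to 2 cyclases, 0 to 5 phosphodiesterases, 0 to 2 PKA subunits, 0 to 3 anchors and 0 to 2 CREB factors and coactivators. Among the 78 tested clones 23 had the other sign with global loess, 8 of them past the threshold there, as given above with their values. Among the 22 clones that passed or belong to PKA subunits, which were followed through every alternative, signs turned for Pde12 (global loess -0.33, median centring -0.37, authors' values -1.08), Pde4b (authors' values 1.48), Akap17b (median centring 0.02), Akap8l (authors' values -0.68), Prkaca (global loess -0.40 and 0.23, median centring -0.42 and 0.34, authors' values -1.05 and 1.33), Prkar1b (authors' values 1.14) and Prkar2b (global loess -0.01, median centring -0.02, without arrays 2 and 4 -0.05). Global loess with block medians removed turned the sign of 0 of the 22 clones. It gave 0.28 for Pde12, 0.15 and -0.07 for Prkaca, -0.32 for Akap17b and 0.26 for this Prkar2b clone. The cause of the turned signs was not tested. Signal limits the precision: the red signal on array 4 had a median of 1.14 times its background.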
